A study of Trichoderma reesei QM6a with 24 samples.

Results

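Transcripts of the *Trichoderma reesei* deletion mutant QM6aΔ72004 were measured in mycelium kept in constant darkness with 5 mM L-methionine. The comparison set 3 libraries of the mutant against 3 libraries of the wild type QM6a, chosen by their labels from 24 libraries, and took in all 10879 gene models of the count table. Both groups grew in minimal medium on cellulose at 28 °C, with methionine supplied to mutant and wild type alike. The culture time is 72 h in the sample labels and 96 h in the growth protocol, and both are given here because neither source settles it. The other 18 libraries held the same strains in darkness without methionine and in constant light with and without it, 3 libraries a group, and were used where the deletion effect was set beside that in another condition. Whether replicates were separate cultures, and how many independent deletion strains were used, is not stated in the labels; the p-values therefore reflect spread among libraries that may be purely technical.

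*T. reesei* is a filamentous fungus that secretes large amounts of cellulase, and QM6a is the wild isolate from which its industrial strains descend. The series' title links the response to methionine with a G-protein coupled receptor. Receptors of this kind sit in the plasma membrane and act through G proteins, whose alpha subunits are switched off with the help of regulators of G-protein signalling (RGS proteins). In fungi one branch of this signalling runs through cyclic AMP and protein kinase A, and in *T. reesei* light, nutrients and G-protein signalling all bear on cellulase gene expression. The comparison asks which transcripts differ when the receptor gene is absent while methionine is present and light is not.

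The 3 mutant libraries held 17399278 to 20628758 counts and the 3 wild type libraries 15471619 to 17336019. Levels are given as CPM, that is counts put on one scale of library size after TMM normalization, and serve here to compare 1 model between libraries. A model was called changed at an adjusted p under 0.05 in edgeR's quasi-likelihood test, fitted to all 24 libraries with Benjamini-Hochberg adjustment over the 9308 models with enough counts to be tested. Identifiers such as TrB0737W are those of the count table. A locus tag beside one rests on a match of gene spans and gene order to a reference table of QM6a, which gave a tag to 36.9% of models and a gene symbol to 40. The count table and that reference give no function for models without a symbol, and these are described by position, level and response.

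The deleted gene was read as TrE0303W, the model matched to TRIREDRAFT_72004 (contig unitig_4_consensus, 935227 to 936691, plus strand, 4 exons, coding length 1215). It had 0 counts in each of the 3 mutant libraries in darkness with methionine, against 466, 579 and 529 in the wild type, or 29.2 ± 1.27 CPM (SD, n = 3). Against a floor of 3 counts over the mutant group it was at least 591-fold lower. A second model, TrC0447C (TRIREDRAFT_63200; unitig_2_consensus, 1487256 to 1489332, minus strand, 3 exons, coding length 1950), also had 0 counts in each mutant library, against 352, 424 and 446 in the wild type, which is at least 459-fold lower. Across the series these were the 2 models with 0 counts throughout the mutant libraries and more than 20 in each wild type library; the opposite pattern was found for 0 models. Every difference described here therefore sets strains apart that differ in both models, and the parts of the 2 losses cannot be told apart.

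Beside TrC0447C both adjacent models rose. TrC0446C (TRIREDRAFT_108087), which lies before it on the contig, had 148.6, 136.7 and 120 CPM in the mutant, against 91.0, 89.1 and 90.0 in the wild type (log2 fold change 0.59, SE 0.07, edgeR adjusted p = 5.22e-05). TrC0448W (TRIREDRAFT_78582), which lies after it, had 100.9, 89.7 and 79.7 CPM in the mutant and 61.9, 62.3 and 60.6 in the wild type (0.55, SE 0.08, adjusted p = 0.00205). In both models the lowest mutant library stood above the highest of the wild type. They also rose in the light libraries with methionine, by 0.79 and 0.87 on the log2 scale, while in the libraries without methionine neither was called, with values of 0.20 and -0.14 in darkness and 0.15 and 0.18 in light. Around TrE0303W, 6 of the 8 nearest models were tested, and none was called by edgeR in darkness with methionine; their values ran from -0.09 to 0.08.

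In the fit without pairing few other transcripts differed. The mutant was higher for 45 models and lower for 5, the missing pair included. These 50 calls are 0.537% of the models tested, 0.483% higher and 0.0537% lower, and 17 of them changed at least 2-fold, 14 higher and 3 lower. No model with a gene symbol was among them; 26 of the 50 carry a locus tag. In all 50 the mutant and wild type libraries did not overlap, which was also so for 16.5% of all models tested, with the mutant above in 8.85% and below in 7.68%. An unadjusted p under 0.05 was reached by 8.27% of the models. The count depended on how the spread was estimated: a fit to the 6 libraries alone called 12 (0.134%), and DESeq2 on the 24 libraries called 115 (1.24%). With same-numbered mutant and wild type libraries of the 6 paired as a block, 521 of 8962 models (5.81%) were called, 398 higher and 123 lower. It also depended on single libraries, with 18 calls without mutant replicate 3, 31 without wild type replicate 1, 16 without wild type replicate 2 and 39 to 56 when another library was left out.

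**Figure D1:**
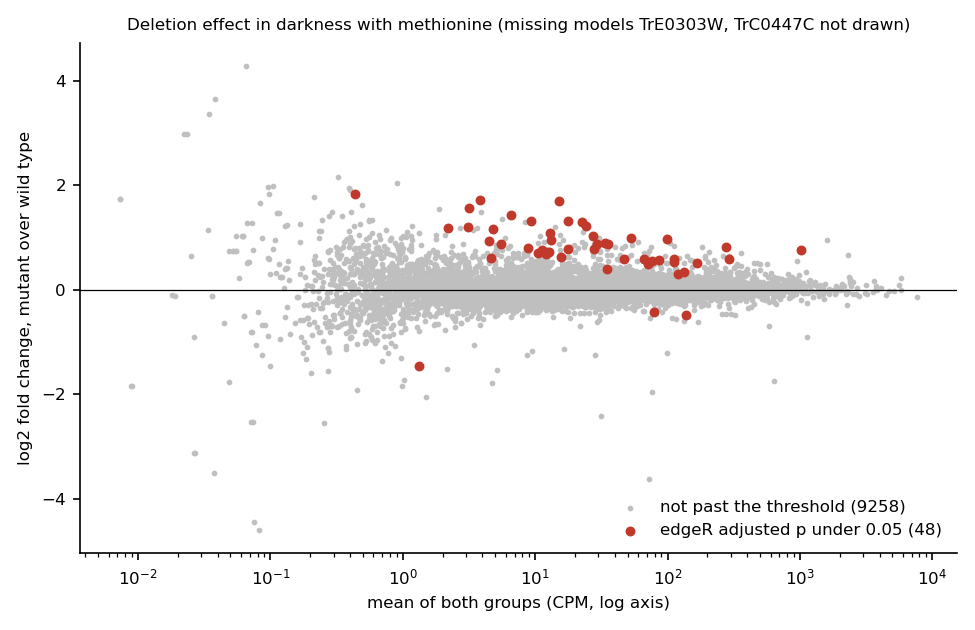
Each point is 1 tested gene model in darkness with methionine. The horizontal axis gives the mean of the mutant and wild type groups in CPM on a log axis, and the vertical axis the log2 fold change of mutant over wild type. Red marks the 48 models called by edgeR other than the missing TrE0303W and TrC0447C, 45 of them above 0 and 3 below. Many models with larger fold changes at low levels did not pass. Some abundant ones did not either, such as TrC1552C at 295.9 CPM in the mutant and 984.7 in the wild type (-1.73).

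The firmest rises were 7 models whose call held under each of the 12 alternative fits. TrB0737W (unitig_1_consensus, 2309608 to 2310071, coding length 393) had 21.3, 23.6 and 25.2 CPM in the mutant, against 6.35, 8.31 and 6.82 in the wild type. Its log2 fold change of 1.71 (SE 0.18, adjusted p = 1.38e-05) was the largest of the 7, about 3.26-fold. TrF0416W (TRIREDRAFT_103103; unitig_5_consensus, 1407032 to 1407744) had 8.70, 10.8 and 9.19 CPM in the mutant and 4.11, 3.44 and 3.16 in the wild type (1.42, SE 0.15, adjusted p = 1.14e-05). In both models every mutant library was more than 2 times as high as any wild type library.

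TrB0493C (TRIREDRAFT_107780; unitig_1_consensus, 1424890 to 1425888) had 24.9, 24 and 27.1 CPM in the mutant and 9.13, 10.1 and 11.4 in the wild type (log2 fold change 1.31, SE 0.15, adjusted p = 6.32e-05). TrA0193C (TRIREDRAFT_22115; unitig_0_consensus, 549242 to 551570) had 35.2, 31.2 and 36.0 CPM in the mutant, against 15.7, 11.6 and 16.8 in the wild type (1.22, SE 0.15, adjusted p = 6.79e-05). TrC1498W (TRIREDRAFT_105866; unitig_2_consensus, 5065709 to 5066513) had 16.7, 16.9 and 19.4 CPM in the mutant and 7.80, 7.67 and 9.27 in the wild type (1.10, SE 0.14). In these 3 models the gap between the strains exceeded the range within either strain.

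TrE0990C (TRIREDRAFT_102776), named after its values were seen because its call held, had 38.5, 34.2 and 37.1 CPM in the mutant, against 19.3, 16.04 and 18.4 in the wild type (log2 fold change 1.03, SE 0.16, adjusted p = 0.00195). TrE0613W (unitig_4_consensus, 2030023 to 2036488, 6 exons, length 6142) was the long and abundant one of the 7, with 350.7, 321.2 and 391.8 CPM in the mutant and 202.1, 192.8 and 209.3 in the wild type. Its log2 fold change of 0.82 was the smallest of the 7 but its SE of 0.08 was also the smallest, and the adjusted p was 3.17e-06. The end of its span overlaps that of TrE0614W on the same strand, a short model that was not tested, so a few reads there could belong to either.

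Among the other rises of at least 2-fold, the largest by the fixed rule for naming was TrA1852C (TRIREDRAFT_58475; unitig_0_consensus, 5938055 to 5939728), with 8.75, 5.42 and 3.58 CPM in the mutant and 2.54, 1.48 and 1.36 in the wild type (log2 fold change 1.72, SE 0.31, adjusted p = 0.00974). The next model on the contig, TrA1853W, moved with it, at 17.3, 13.01 and 9.37 CPM in the mutant and 6.83, 4.39 and 4.58 in the wild type (1.33, SE 0.25, adjusted p = 0.0125). Replicate 1 was the highest library of both models in both strains. TrG0192C had 3.44, 5.20 and 5.48 CPM in the mutant, against 1.33, 0.953 and 2.51 in the wild type (1.56, SE 0.33, adjusted p = 0.0259). Without wild type replicate 2, the calls of TrA1852C, TrA1853W and TrG0192C were lost; that of TrA1853W was also lost without mutant replicate 1 or wild type replicate 3, and that of TrG0192C without mutant replicate 2 or 3 or wild type replicate 1.

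TrF0292W (TRIREDRAFT_70923) had 26.9, 31.5 and 37.1 CPM in the mutant and 13.3, 11.4 and 14.2 in the wild type (log2 fold change 1.29, SE 0.22, adjusted p = 0.0063). TrE1139W (unitig_4_consensus, 3652214 to 3653777) had 4.92, 3.72 and 4.33 CPM in the mutant, against 1.81, 1.905 and 1.91 in the wild type (1.20, SE 0.15, adjusted p = 0.000152). Its wild type libraries were almost equal, and its call held with any 1 library left out. TrA1500C averaged 3.07 ± 0.77 CPM in the mutant and 1.35 ± 0.532 in the wild type (1.19), and TrA1961C 6.70 ± 1.07 and 2.98 ± 0.711 in the same order (1.17). TrC0180C had the largest fitted rise (1.84, adjusted p = 0.0457), but its wild type libraries held 0.159 to 0.218 CPM, about the level of 3 counts in a library, so the size of that rise is not well measured. Without mutant replicate 3 or wild type replicate 2 the calls of TrF0292W, TrA1500C, TrA1961C and TrC0180C were lost; those of the last 3 were also lost without wild type replicate 1, that of TrA1500C without mutant replicate 1, and that of TrC0180C without mutant replicate 2 or wild type replicate 3.

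**Figure D2:**
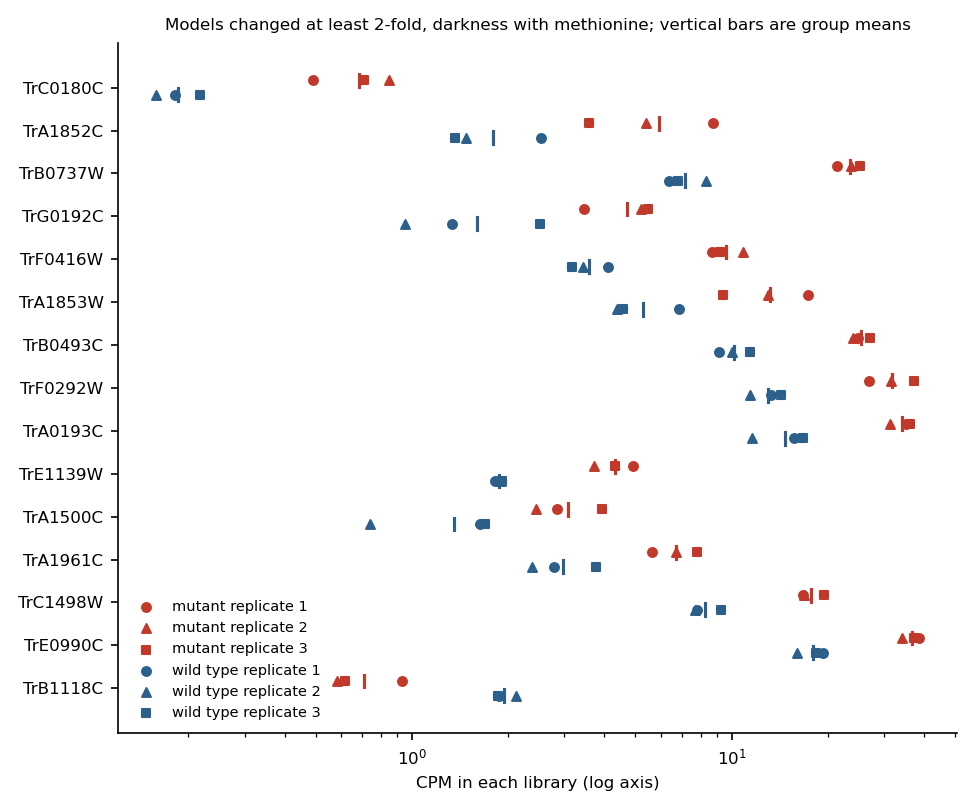
CPM in each library (log axis) of the 15 models called and changed at least 2-fold in darkness with methionine, the missing pair left out. Red symbols are the 3 mutant libraries and blue symbols the 3 wild type libraries, with the shape giving the replicate number and vertical bars the group means. Red lies right of blue in 14 models and left of it in TrB1118C.

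The most abundant rises were smaller in fold. TrB1478C (TRIREDRAFT_64710) had 1147, 1166 and 1541 CPM in the mutant and 699.9, 632.9 and 926.0 in the wild type (log2 fold change 0.77, SE 0.17, adjusted p = 0.0341). TrB1658W had 340.1, 310.7 and 393.6 CPM in the mutant, against 236.5, 206.3 and 253.8 in the wild type (0.58, SE 0.10, adjusted p = 0.00415). Replicate 3 was the highest library of each strain for both models. The call of TrB1478C was lost without mutant replicate 2 or 3 or wild type replicate 1 or 2, and that of TrB1658W without wild type replicate 2. TrF0056W (0.52), TrB1391C (0.34) and TrB1039W (0.31) completed the 6 most abundant rises together with TrE0613W, with means that differed by less than 1.5-fold between strains. The calls of these 3 were lost without mutant replicate 3 or wild type replicate 2, and that of TrB1039W also without any of 3 others.

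Apart from the missing pair, 3 models fell. TrB1118C (unitig_1_consensus, 3515419 to 3516394) had 0.93, 0.584 and 0.618 CPM in the mutant and 1.88, 2.12 and 1.85 in the wild type (log2 fold change -1.46, SE 0.30, adjusted p = 0.0237). TrD0166W (unitig_3_consensus, 484301 to 485467) had 104.3, 124.1 and 119.8 CPM in the mutant, against 159.4, 163.9 and 161.2 in the wild type (-0.48, SE 0.10, adjusted p = 0.0259). TrD0920W (TRIREDRAFT_53500) had 60.2, 70.2 and 71.4 CPM in the mutant and 92.8, 92.6 and 86.5 in the wild type (-0.43, SE 0.09, adjusted p = 0.0247). In each the wild type libraries lay close together and above every mutant library. The call of TrB1118C was lost without mutant replicate 2 or 3 or wild type replicate 1 or 2, that of TrD0166W without any 1 library but mutant replicate 2, and that of TrD0920W without any 1 but wild type replicate 3.

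The genes of G-protein signalling and its kinases that could be matched showed no called change. All 6 were tested, 0 were called in either direction by edgeR or DESeq2, and none had an unadjusted p under 0.05 in edgeR. Over all models tested these shares were 0.537%, 1.24% and 8.27%, so no call among 6 models sets them apart. The median log2 fold change was 0.00, as over all models tested. rgs1, which encodes an RGS protein, had 140.9 ± 2.35 CPM in the mutant and 147.5 ± 13.9 in the wild type (SD, n = 3; log2 fold change -0.07, 95% interval -0.28 to 0.15). gna2 (0.08, -0.07 to 0.24) and gna3 (-0.06, -0.23 to 0.11) encode G-protein alpha subunits. pkac2 (0.07, -0.12 to 0.25) encodes a catalytic and pkar1 (-0.06, -0.22 to 0.09) the regulatory subunit of protein kinase A, and pkc1 (0.07, -0.06 to 0.20) encodes protein kinase C. All 6 intervals lay within -0.28 to 0.25, so a 2-fold difference lies outside each of them.

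Genes of cell wall degradation were covered thinly. Of 18 cellulase and 16 hemicellulase locus tags, 4 of each were matched and tested, and 0 were called by edgeR or DESeq2. An unadjusted p under 0.05 in edgeR was reached by 1 cellulase tag. Over all models tested these shares were 0.537%, 1.24% and 8.27%, so the counts on lists this short do not set them apart. The median log2 fold changes were -0.59 and -0.05. The 4 cellulase values were -1.21 for cip2, -1.13 for TrG0019C, -0.04 for cel1b and 0.15 for TrA2104C. Their median thus lies between members that differ widely and leans on cip2, which was near the floor. On the hemicellulase list TrA2132C was also low, at 0.289 CPM in the mutant and 0.347 in the wild type. xyr1, which encodes the activator of cellulase and xylanase genes, had 173.7 ± 14 CPM in the mutant and 170.7 ± 7.68 in the wild type (log2 fold change 0.02, 95% interval -0.13 to 0.18). The beta-glucosidase gene cel1b had 34.5 ± 0.719 and 35.6 ± 2.55 CPM in the same order (-0.04, -0.22 to 0.13). The esterase gene cip2 was at 0 to 0.319 CPM in the mutant and 0.164 to 0.363 in the wild type, too few counts for a fold.

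TrG0018C (TRIREDRAFT_111849, on the hemicellulase list; unitig_6_consensus, 53970 to 55641) stood apart from these. It had 51.7, 52.1 and 76.5 CPM in the mutant and 190.3, 117.8 and 107.3 in the wild type, a log2 difference of -1.20 (SE 0.66) that did not pass (adjusted p = 0.713). Its neighbour TrG0019C (TRIREDRAFT_123992, on the cellulase list; 57747 to 59535) had 11.8, 8.92 and 10.3 CPM in the mutant, against 35.6, 17.9 and 14.6 in the wild type (-1.13, SE 0.51, adjusted p = 0.553). For both, every mutant library was below every wild type library, and wild type replicate 1 was the highest. Both models spread widely within other groups of the series, at 505 ± 625 CPM for TrG0018C in the mutant in light with methionine.

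Other matched genes had fitted values near 0. All 5 tested chitinase genes of glycoside hydrolase family 18, 4 ribosomal protein genes and 4 genes of vesicle traffic had 0 calls by edgeR and DESeq2, none with an unadjusted p under 0.05 in edgeR. Their median log2 fold changes were -0.04, -0.12 and 0.00. Over all models tested 0.537% were called by edgeR, 1.24% by DESeq2 and 8.27% had such an unadjusted p. The counts on lists this short therefore do not set them apart. The chitinase gene chi18-15 averaged 0.204 CPM in the mutant and 0.200 in the wild type, too few counts for a fold (95% interval -2.50 to 2.65). The lowest ribosomal value was that of rps30, with 252.9, 268.8 and 261.3 CPM in the mutant and 306.0, 326.1 and 311.4 in the wild type (-0.27, SE 0.13, adjusted p = 0.613). Over all 36 tested genes with a symbol the median was -0.04, with 2 at an unadjusted p under 0.05; these were blr2, whose product works with the blue-light photoreceptor (-0.13, adjusted p = 0.475), and rhp3 (0.13, adjusted p = 0.541). The listed hydrophobin and conidial pigment genes were matched to 0 models, so the labelled cell type, mycelium, was not checked against spore markers.

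**Figure D3:**
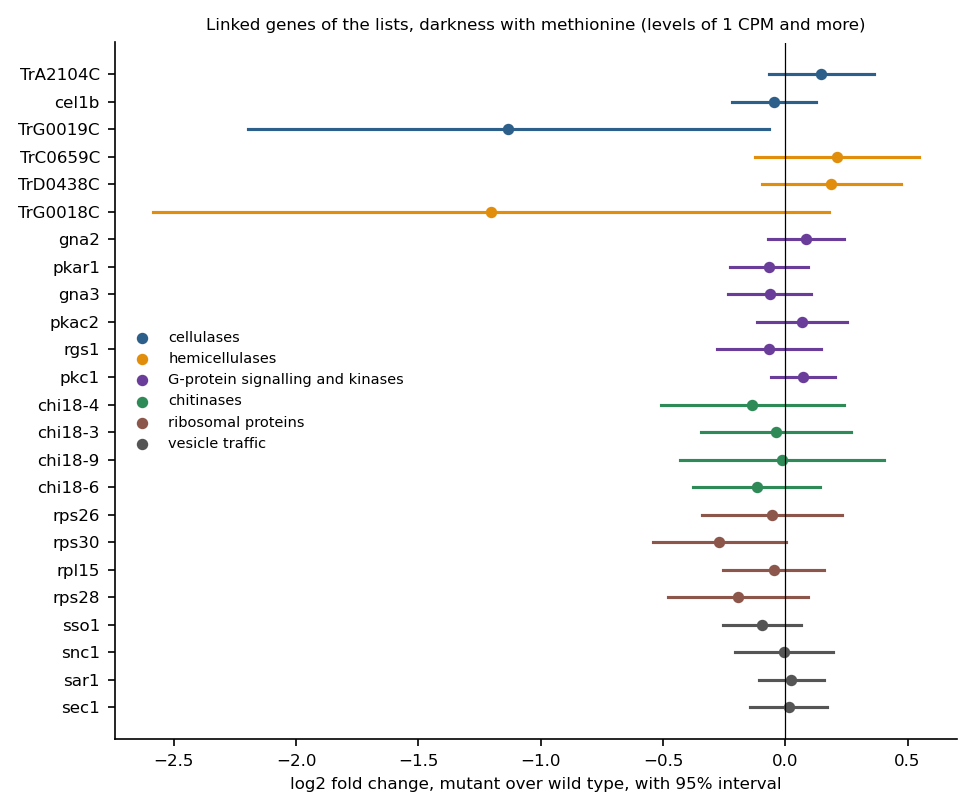
Log2 fold change of mutant over wild type in darkness with methionine (horizontal axis) for the listed genes with a level of at least 1 CPM, grouped by list in colour. Points are the fitted values and lines the 95% intervals. The 6 signalling genes lie within -0.28 to 0.25 with their intervals, while TrG0018C and TrG0019C lie below -1 with wide ones.

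Same-numbered mutant and wild type libraries were taken as pairs. Their deviations from the group means correlated at 0.37, 0.14 and 0.47 for replicates 1, 2 and 3. Differently numbered libraries gave -0.4 to 0.09, so replicate 2 stood little above them. TrB1478C and TrB1658W were highest in replicate 3 in both strains, but TrG0018C was highest in wild type replicate 1 and mutant replicate 3. Whether the numbers mark a shared batch is not stated in the labels. A fit of the 6 libraries with the replicate number as a block called the 521 models given above, 43 of which changed at least 2-fold. The block applied to these same 6 libraries within the fit of all 24 called 72 (0.774%), 67 higher and 5 lower. With the block in the 6 libraries, TrG0018C (log2 fold change -1.18, adjusted p = 0.00348), TrG0019C (-1.06, adjusted p = 0.00362) and rps30 (-0.27, adjusted p = 0.0052) were called lower. In same-numbered pairs the log2 differences were -1.88, -1.18 and -0.49 for TrG0018C and -1.59, -0.999 and -0.496 for TrG0019C. Any pairing would put these below 0, since every mutant library lay below every wild type library. The SEs in that fit of 6 libraries were 0.18 for TrG0018C and 0.17 for TrG0019C, small beside the spread of the pairs. Its adjusted p-values for these 2 models therefore do not measure how the pairs varied. With the block in the 24-library fit TrG0018C, TrG0019C and rps30 were not called. The 6 signalling genes, xyr1 and cel1b were not called with the block in either fit.

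The deletion effect in darkness was next set against that without methionine. An interaction, the log2 fold change of mutant over wild type with methionine minus the same without it, was called by edgeR for 4 models (0.043% of those tested), all positive. With methionine TrE1139W stood at 4.92, 3.72 and 4.33 CPM in the mutant and 1.81, 1.905 and 1.91 in the wild type; without it, at 19.1, 22.8 and 23.9 CPM in the mutant and 29.85, 32.0 and 28.2 in the wild type. The mutant libraries thus lay above those of the wild type in one medium and below them in the other. The fall without methionine was itself not called (-0.45, edgeR adjusted p = 0.0923). The interaction was 1.65 (SE 0.19, adjusted p = 0.000387). It was the 1 interaction called under every alternative run.

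TrB0737W had 8.29, 9.11 and 8.42 CPM in the mutant and 7.19, 6.17 and 7.92 in the wild type without methionine, where the groups also did not overlap but lay far closer than with methionine (interaction 1.43, SE 0.26, adjusted p = 0.0453). TrC1474W had 121.1, 130.8 and 143.0 CPM in the mutant and 92.1, 79.7 and 102.4 in the wild type with methionine. Without it the mutant had 130.1, 130.3 and 134.2 CPM and the wild type 169.1, 128.6 and 169.7, which overlap (0.77, SE 0.14, adjusted p = 0.0453). TrC0448W, next to the missing TrC0447C, had 53.5, 56.3 and 57.6 CPM in the mutant and 58.5, 60.0 and 65.9 in the wild type without methionine, where the mutant lay below the wild type (0.69, SE 0.12, adjusted p = 0.0453). These 3 interactions lost their call without 1 or more single libraries. With the replicate block 8 interactions were called (0.0859%), among them those 4. DESeq2 called 32 (0.344%), likewise with those 4.

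**Figure D4:**
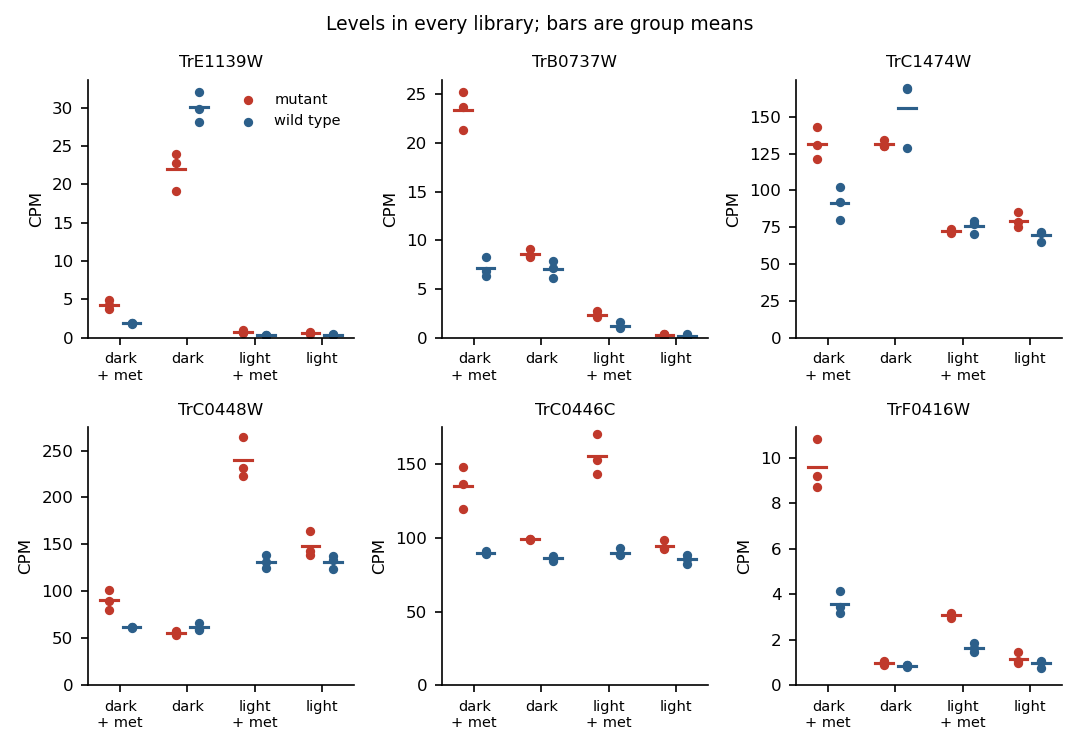
CPM in each library of 6 models across the 4 conditions (met, methionine), the mutant in red left of the wild type in blue, with bars for group means. The upper 3 and TrC0448W are the models with a called interaction; in TrE1139W and TrC0448W every mutant library in darkness lies above the wild type with methionine and below it without.

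Over the whole set of calls, the models that rose with methionine in darkness were close to even without it. Leaving out the missing pair, 17 models were called by edgeR in darkness without methionine (0.204% of those tested with the pair counted), and 0 of the 48 called with methionine were among them. Of the 45 rises, 27 had a value above 0 there, with a median of 0.11 against 0.82 with methionine; 50.2% of all models tested had a value above 0 there. The fold changes that chose the 45 do not rest on these libraries, but the spread behind the calls was estimated over all 24. Their levels also moved with methionine itself in ways that differed from model to model: in the wild type in light, whose levels do not enter those fold changes, 17 of the 45 were called higher and 6 lower with methionine, against 35.2% and 32.2% of all models tested.

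In light with methionine 30 models were called besides the missing pair, 0.344% of those tested with the pair counted. Of these 6 were shared with darkness, 12.5% of the 48 here and 20% of the 30 there, all 6 higher in the mutant in both. They were TrC0446C and TrC0448W on either side of TrC0447C, and TrB0493C, TrF0416W, TrD1304C and TrC0159C. TrF0416W had 3.18, 2.94 and 3.09 CPM in the mutant and 1.64, 1.47 and 1.83 in the wild type in light with methionine (log2 fold change 0.89, adjusted p = 0.0193). TrD1304C, named because it was shared, had 111.7, 136.6 and 143.3 CPM in the mutant and 48.5, 76.2 and 75.05 in the wild type in darkness, and 66.3, 53.6 and 61.2 in the mutant and 33.2, 33.7 and 42.7 in the wild type in light. The 2 strains did not overlap in either lighting.

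Of the 45 rises, 37 had a value above 0 in light with methionine, with a median of 0.23, against 50.4% of all models tested. In light without methionine 12 models were called besides the missing pair (0.15% with the pair counted), 1 of them, TrG0053C, among the 48, and 32 of the 45 rises were above 0 (median 0.08; 56.2% of all models). The difference between the deletion effect in darkness and that in light, both with methionine, was called for 0 models by edgeR, with the smallest adjusted p at 0.101 and 6.56% of models at an unadjusted p under 0.05, and for 20 (0.215%) by DESeq2. Lighting coincides with separate runs of library numbers, so it cannot be told apart from a library batch there.

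**Figure D5:**
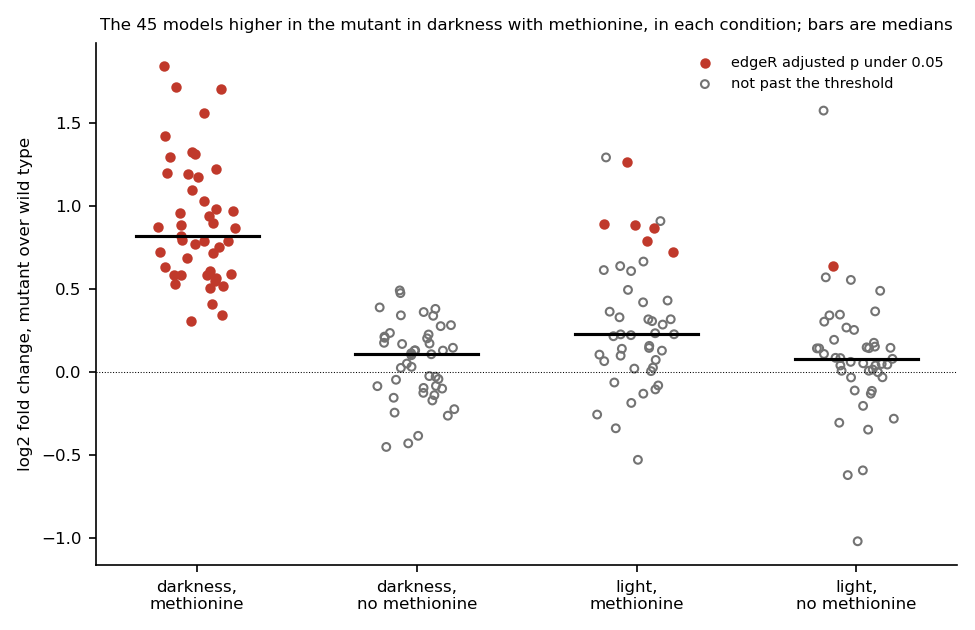
Log2 fold change of mutant over wild type (vertical axis) for the 45 models that rose in darkness with methionine, in each of the 4 conditions; red points passed the edgeR threshold in that condition, open points did not, and bars are medians. The first column is the one that chose the models, at a median of 0.82; the other medians are 0.11, 0.23 and 0.08.

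In position and build the 45 rises were spread over all 7 contigs, with 3 to 10 on each. Adjacent rises were pairs at most: TrA1852C with TrA1853W, and TrD1323C with TrD1324W. TrA0193C and TrA0195C lay 2 models apart within 6.61 kb. TrC0446C and TrC0448W flank the missing TrC0447C, and 0 runs of 3 neighbouring tested models were called in the same direction. The rises lay nearer to the contigs' outermost models than tested models in general, at a median of 546.9 kb against 1226 kb, with 5 of 45 (11.1%) within 100 kb against 3.44%. Their coding length had a median of 1386 against 1224 over all models tested, both had a median of 3 exons, and their median level in the wild type was 12.99 CPM against 34.4. The highest mutant library was replicate 3 in 30 of the 45 rises and in 40.9% of all models tested; without that library 15 models were called higher and 3 lower.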

How the data were processed

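RNA-seq was made from total RNA of mycelium with a stranded kit and ribosomal RNA depletion, per the labels' protocols. The authors deposited whole-number counts per model, which featureCounts 2.0.1 made from read pairs with the reverse strand setting, per the file headers. The submitters' processing notes list HISAT2 2.2.1. The genome build and trimming are not given in the sources used here, and coordinates are those of the deposited table. Of the lengths in it 10301 are multiples of 3, so they are called coding lengths. That of TrE0613W, 6142, is not a multiple of 3 and is given as a length only. No count fell on 231 models.

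Counts were analysed in R 4.3.3 with edgeR 4.0.16 (TMM, factors 0.877 to 1.114; filter with minimum count 10; quasi-likelihood test; 8-group model of 24 libraries holding 13210988 to 21224989 counts; common coefficient of variation 0.133). SE is the fold change divided by the root of F. Floors of 3 counts, 95% intervals and p-values cover no culture variation beyond these libraries. DESeq2 1.42.0 and the other alternatives are in the closing section. Scripts were tested on simulated data.

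Models were matched to locus tags of the QM6a reference where the span was identical and at least 3 neighbours matched too. Up to 6 neighbours on each side were compared, and the 3 were counted over both sides together. Of 10879 models 4012 were matched, and a shuffled table gave at most 1 match. That reference names no products, so the planned lists by product word were not used. The labels number the samples of a group 1 to 3; residuals of same-numbered mutant and wild type libraries correlated at 0.37, 0.14 and 0.47, all over 0.1, so the numbers were taken to pair them. Calls are from the fit without that block.

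The members, lists and tests were chosen with earlier results of these data known. Named models were the missing ones, the 12 largest called rises and falls with at least 1 CPM and groups apart, the 6 most abundant of each direction, signalling genes and the called interactions. Others (neighbours, list examples, shared calls, TrE0990C, TrC0180C) were named after their values were seen.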

Additional observations from a re-analysis of the deposited data

Results flagged for a closer look

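The deletion effect in darkness differed between media for 4 models by the interaction term in edgeR. The difference, with methionine minus without, was 1.65 for TrE1139W (adjusted p = 0.000387), 1.43 for TrB0737W, 0.77 for TrC1474W and 0.69 for TrC0448W (adjusted p = 0.0453 for each of the 3). Over the alternatives the adjusted p of TrE1139W ran from 4.33e-07 to 0.0123. Leaving out single libraries left TrB0737W without a call each time (adjusted p 0.0632 to 0.142). TrC0448W kept its call only without mutant replicate 3 (0.0126) and TrC1474W only without wild type replicate 3 (0.0288), among those 6 fits. No cause of these differences was tested.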

How the results depend on the processing

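Of the 50 calls, 9 held under all alternatives: TrE0303W, TrC0447C and the 7 rises named as such. Against 50 calls, DESeq2 gave 115, the 6 libraries alone 12, the replicate block in those 6 libraries 521, the block in the 24-library fit 72, RLE size factors 52, no filter 51 and a 2-fold limit 17; leaving out 1 library gave 16 to 56. The main calls found again were 49 with DESeq2, 11 in the 6 libraries alone and 49 with either block. Every call that could be fitted kept its sign. The methionine interaction, 4 calls, gave 32 with DESeq2, 8 with the replicate block, 2 at 2-fold and 1 to 2 with 1 library left out; in a fit of the darkness libraries alone it gave 4, of which 2 were shared. The lighting interaction, 0 calls, gave 20 with DESeq2, 3 with the replicate block and 0 to 1 with 1 library left out, the 1 without mutant replicate 3. Apart from the fewer libraries or other spread estimate each setting uses, the cause was not tested. At these depths 3 counts in a library equal 0.145 to 0.194 CPM, which limits models as low as TrC0180C.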

Other observations

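With the replicate number as a block in the 6 libraries, further models changed at least 2-fold that the fit without it did not call. TrE0434C averaged 30.9 ± 7.19 CPM in the mutant and 120.6 ± 64.9 in the wild type (SD, n = 3; log2 fold change -1.87, edgeR adjusted p = 0.000473 with the block and 0.427 in the 24-library fit without it). TrB1918C averaged 9.82 ± 2.86 CPM in the mutant and 52.9 ± 36.0 in the wild type (-2.25, adjusted p = 0.00222 with the block and 0.541 without). TrC1552C, an abundant model, averaged 295.9 ± 97.4 CPM in the mutant and 984.7 ± 359.0 in the wild type (-1.73, adjusted p = 0.000619 with the block and 0.678 without). In all 3 the mutant libraries lay below those of the wild type. Replicate 1 was the highest wild type library of each, and replicate 3 the highest mutant library. The strains thus did not move together over the replicate numbers. For TrE0434C the pairs ran from 31.5 against 195.2 CPM in replicate 1 to 37.8 against 77.6 in replicate 3. The SEs with the block were 0.21 for TrE0434C, 0.32 for TrB1918C and 0.21 for TrC1552C, small beside such a spread. The adjusted p-values with the block therefore do not measure how the pairs varied. The block in the 24-library fit called none of the 3. Darkness without methionine and light with it were tested only in the fit without the block. That fit called none of the 3 there, nor in darkness with methionine, so the conditions cannot be set against each other for them. With the block in the 6 libraries, 5 runs of at least 3 neighbouring tested models were called, all higher in the mutant. The longest was the 4 models from TrB0848C to TrB0851C. The 24-library fit without the block gave 0 such runs.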
